A study of Rattus norvegicus with 46 samples.

Results

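This account covers the unloaded legs of paralysed and ventilated rats and asks how muscle gene expression differed between rats immobilised for 9 to 14 d and rats immobilised for 6 h to 4 d. The arrays were chosen by the word unloaded in their labels, which gave 19 of the 46 arrays of the series, 6 from 9 to 14 d and 13 from 6 h to 4 d, with 1 array per rat. All rats were female Sprague-Dawley rats, anaesthetised with isoflurane, mechanically ventilated and paralysed with α-cobrotoxin (100 µg on the first day, then 250 µg per day), a cobra neurotoxin that occupies the muscle acetylcholine receptor. RNA came from the proximal gastrocnemius, a mixed calf muscle with mainly fast fibres, of the leg that was not moved. The other leg of the same rats, the left one, was flexed and extended passively at 13.3 cycles per min. Those loaded legs took part in the filter of probe sets and otherwise enter only where they are named. The controls of this comparison carry the same toxin, anaesthetic and ventilation, untreated rats are not analysed here, and a window pools rats of different durations. The ages of the rats were not given in the sources used here. The series also has 4 unloaded legs of 5 to 8 d, which enter the estimate of the spread and are described where named. Legs are called by the number in their labels.

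Muscle that is cut off from its nerve, or whose receptors are blocked, loses mass and re-expresses genes of the developing fibre. The acetylcholine receptor is no longer held to the synapse, myogenic transcription factors return, and genes of contraction and energy metabolism decline. Because paralysis in this model acts at the receptor, the nerve itself stays in place.

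The tissue label was held against 10 markers of muscle fibres, all of them kept after filtering. Their mean log2 level ran from 13.61 to 13.77 at 6 h to 4 d and from 13.34 to 13.56 at 9 to 14 d, against array medians of 6.07 to 6.20 over all probe sets. Acta1, skeletal α-actin, ran from 14.17 to 14.33 (median 14.23) in the earlier legs and from 13.69 to 14.22 (median 13.97) in the later ones. Of the B cell markers on the array 1 of 4 and of the T and natural killer cell markers 4 of 13 passed the filter, against 8 of 8 for endothelial cells. In pieces of whole muscle, a change in the number of cells of a type and a change in RNA per cell cannot be told apart.

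A large part of the genes measured differed between the windows. Of 9289 genes, 4232 differed between 9 to 14 d and 6 h to 4 d at an adjusted p under 0.05 (45.6%; limma, Benjamini-Hochberg adjustment over all 9289 genes), 2663 of them higher (28.7%) and 1569 lower (16.9%). A rise of at least 2-fold was seen in 375 genes (4.04%) and a fall of that size in 203 (2.19%), and for 4-fold the counts were 55 (0.592%) and 29 (0.312%). The windows did not overlap for 917 genes (9.87%), that is, all 6 later legs lay above all 13 earlier legs for 683 (7.35%) and below them for 234 (2.52%). The median log2 difference of all genes was 0.07, and 62.9% of the calls were rises; after cyclic loess normalisation the median was 0.0006 and 52.8% of the calls were rises. The words rose and fell stand for a call in this fit at 9 to 14 d against 6 h to 4 d, SE is the standard error of the log2 difference, and every adjusted p is from limma. Rises and falls of this fit that are counted in a gene list are to be held against the 28.7% and 16.9% of all genes.

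**Figure D1:**
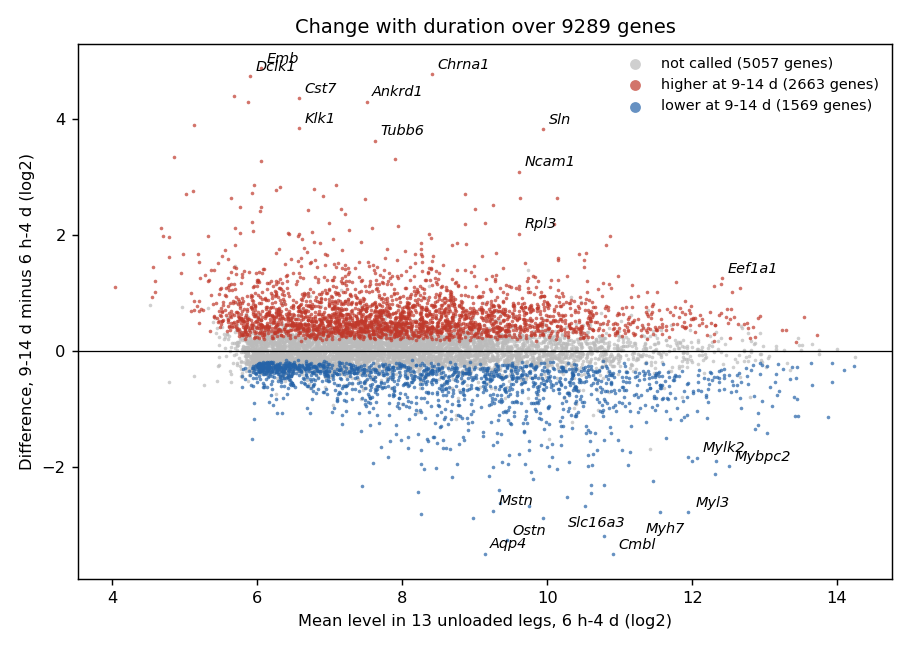
Log2 difference of each of 9289 genes (9 to 14 d minus 6 h to 4 d, y axis) against its mean log2 level in the 13 legs of 6 h to 4 d (x axis); red genes were called higher, blue lower, grey neither. Rises reach 4.86 (Emb) and falls -3.50 (Cmbl), and more genes lie above 0 than below.

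The first principal component of the 23 unloaded legs held 43.6% of the variance and separated the windows, with scores from 22.8 to 33.5 at 9 to 14 d and from -35.5 to -17.4 in 11 of the 13 legs of 6 h to 4 d. Legs 35 and 37, also of 6 h to 4 d, stood apart from the others at 12.4 and 8.0, and leg 49 of 9 to 14 d was the highest on the second component (45.1). Without legs 35 and 37, 4740 genes were called and the windows did not overlap for 1141 genes in the upward and 435 in the downward direction. The labels also end in a code shared by groups of arrays, whose meaning is not stated; 1 code is shared by 4 legs of 6 h to 4 d (31, 33, 35 and 37) and 4 legs of 9 to 14 d (45, 47, 49 and 51), while every other code holds legs of only 1 of these windows. With the code as a covariate 2177 genes were called (1420 higher and 757 lower). Within the shared code, with 4 legs against 4, 924 were called (678 higher and 246 lower). List counts from these fits are to be held against those counts of all 9289 genes. In both, the earlier side of the difference rests on legs 31, 33, 35 and 37 alone, so these fits are not separate checks. Of the 578 genes called with at least 2-fold, 577 had the same direction within the shared code, 281 were called there and 417 were called with the code as a covariate. The legs of the shared code are among those that selected these genes, so the shared direction was largely fixed in advance and is no separate support. The closest pair of unloaded legs, 27 and 29, differed by an SD of 0.232 over genes, against a median of 0.615 over pairs, so no pair was treated as 1 library.

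**Figure D2:**
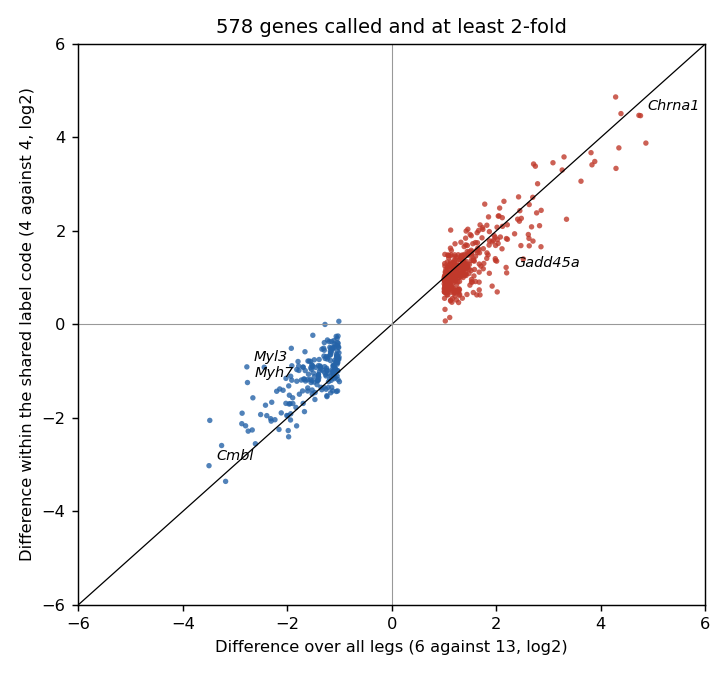
Log2 difference of the 578 genes called with at least 2-fold, over all legs (6 against 13, x axis) and within the label code that holds both windows (4 against 4, y axis), with the line of equality. Nearly all points keep their sign, but the legs of the y axis are part of those of the x axis, which selected the genes. Myh7, Myl3 and Gadd45a lie far nearer to 0 within the code.

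The acetylcholine receptor of muscle is a pentamer of α, β, δ and either the fetal γ or the adult ε subunit, and its clustering depends on the receptor kinase MuSK and the scaffold rapsyn. Of 18 genes of the receptor and postsynaptic apparatus that passed the filter, 9 rose and 2 fell, and 6 of the rises left no overlap between windows. Chrna1, the α subunit, ran from 6.42 to 9.75 (median 8.72) in the legs of 6 h to 4 d and from 12.81 to 13.54 (median 13.17) in those of 9 to 14 d. Its log2 difference was 4.76 (SE 0.41), a 27.1-fold rise at an adjusted p of 7.8e-09, the largest rise among genes measured above the array median in both windows. Chrnd, the δ subunit, ran from 6.28 to 9.14 (median 8.17) and then from 10.87 to 11.47 (median 11.24), a rise of 3.30 (SE 0.35, 9.83-fold, adjusted p = 1.27e-07). All later legs lay above all earlier ones for both genes. The fetal γ subunit Chrng ran from 6.37 to 7.66 (median 6.73) and then from 8.85 to 10.68 (median 9.39), again without overlap, and rose by 2.79 (SE 0.31, 6.92-fold, adjusted p = 2.27e-07). The adult ε subunit Chrne ran from 5.61 to 7.69 (median 6.58) and then from 6.67 to 9.45 (median 8.06), with overlap, and rose by 1.46 (SE 0.38, 2.74-fold, adjusted p = 0.00364). The β subunit Chrnb1 ran from 9.63 to 10.26 (median 9.91) and then from 10.69 to 11.10 (median 10.81) and rose least among the subunits, by 0.95 (SE 0.09, 1.94-fold, adjusted p = 4.9e-08), although its windows did not overlap. Musk rose by 2.11, the neuregulin receptor gene Erbb2 by 2.04 and the rapsyn gene Rapsn by 1.01 on the log2 scale. Other members fell or were not called. Tnk2, a non-receptor tyrosine kinase, fell by 0.89 without overlap and Dok7, the cytoplasmic activator of MuSK, fell by 0.47, while Agrn, agrin itself, had a difference of -0.14 (adjusted p = 0.271). With the label code as a covariate, Rapsn and Dok7 were no longer called.

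Promoters of the receptor subunits and Musk are shown because these genes rose together and myogenic factors bind the E-box, a short motif. The 120 bases before each transcription start are given 5′ to 3′ from RefSeq (GRCr8), with the E-boxes CAGCTG and CACCTG, on either strand, in capitals.
Chrna1, chr3:78877354-78877473, minus strand: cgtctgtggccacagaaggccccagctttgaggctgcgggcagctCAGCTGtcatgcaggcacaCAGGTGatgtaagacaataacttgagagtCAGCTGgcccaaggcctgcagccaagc
Chrnb1, chr10:55015108-55015227, minus strand: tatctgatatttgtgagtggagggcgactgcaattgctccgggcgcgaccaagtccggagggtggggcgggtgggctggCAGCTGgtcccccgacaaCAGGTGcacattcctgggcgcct
Chrnd, chr9:95310196-95310315, plus strand: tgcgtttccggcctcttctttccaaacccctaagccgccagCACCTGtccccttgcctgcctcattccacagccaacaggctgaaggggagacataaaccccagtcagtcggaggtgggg
Chrng, chr9:95325864-95325983, plus strand: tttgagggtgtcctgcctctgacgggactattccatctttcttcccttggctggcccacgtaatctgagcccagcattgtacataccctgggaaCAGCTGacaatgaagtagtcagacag
Chrne, chr10:55834155-55834274, minus strand: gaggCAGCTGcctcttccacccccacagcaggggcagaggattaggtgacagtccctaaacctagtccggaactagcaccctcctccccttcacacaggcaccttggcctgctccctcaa
Musk, chr5:77853616-77853735, plus strand: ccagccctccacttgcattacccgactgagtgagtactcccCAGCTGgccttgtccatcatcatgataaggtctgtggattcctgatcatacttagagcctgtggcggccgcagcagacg
Each of the 6 promoters holds at least 1 such E-box in the 250 bases before the start, against 25.8% of all 33469 RefSeq promoters of that length. Chrna1 has 3, which begin 75, 56 and 27 bases before the start, Chrnb1 has 2, and the others have 1. Other members of the postsynaptic list were not searched. A match describes letters, not binding, and the part of these E-boxes in the rises was not tested.

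Myogenic factors were among the genes that rose. Of 18 myogenic regulators and fusion genes kept, 8 rose and 4 fell, and with the label code as a covariate 5 were called higher. Myog, myogenin, ran from 7.13 to 11.13 (median 8.78) in the earlier legs and from 11.15 to 11.94 (median 11.56) in the later ones and rose by 2.70 (SE 0.41, 6.51-fold, adjusted p = 1.58e-05). The windows nearly touched, because leg 35 at 11.13 and leg 37 at 10.91 lay far above the other earlier legs, which ended at 9.45. Myod1, a determination factor, was higher in leg 35 (11.24) than in any later leg. It ran from 7.33 to 11.24 (median 7.97) and then from 9.92 to 11.21 (median 10.26) and rose by 2.02 (SE 0.46, 4.05-fold, adjusted p = 0.00112 in limma). Myf5, the factor linked to satellite cells, followed another pattern, since legs 35 and 37 stood at 6.36 and 6.73, in the lower part of the early range. It ran from 6.36 to 7.28 (median 7.10) and then from 8.89 to 9.93 (median 9.08) and rose by 2.21 (SE 0.17, 4.63-fold, adjusted p = 2.58e-09). Mymk, the membrane protein myomaker that drives myoblast fusion, was below the array medians early, from 5.49 to 6.35 (median 5.90), and ran from 7.91 to 10.15 (median 8.67) later, a difference of 2.86 for which no fold is given. Cdh15, M-cadherin of satellite cells, fell by 0.63, and the Notch target Heyl by 0.77. Myod1 was not called once the label code entered as a covariate.

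Among 15 genes of denervation signalling and adhesion, 8 rose and 3 fell. Ncam1, the neural cell adhesion molecule that spreads over denervated fibres, ran from 8.32 to 10.68 (median 9.70) and then from 11.88 to 13.06 (median 12.89) and rose by 3.08 (SE 0.27, 8.49-fold, adjusted p = 7.8e-09). Runx1, a transcription factor induced by loss of innervation, ran from 8.70 to 11.87 (median 10.09) and then from 12.31 to 12.90 (median 12.85), a rise of 2.63 (SE 0.34, 6.19-fold, adjusted p = 1.68e-06). Both left the windows apart, although legs 35 and 37 stood at 11.73 and 11.87 for Runx1. Emb, embigin, a chaperone of monocarboxylate transporters, had the largest difference of all genes, 4.86, from a range of 5.03 to 8.24 (median 5.63), below the array medians, to 10.11 to 11.56 (median 10.98). Gadd45a, a stress and growth arrest gene, ran from 7.89 to 11.13 (median 8.73) and then from 10.61 to 12.23 (median 11.22) and overlapped, as legs 35 and 37 stood at 11.08 and 11.13; it rose by 2.20 (SE 0.42, adjusted p = 0.000232), and by 1.10 within the shared label code, where it was not called (adjusted p = 0.268). Cdkn1a, the cell cycle inhibitor p21, rose by 1.98 without overlap. Nrep, expressed in regenerating nerve and muscle, went the other way, from 7.81 to 11.51 (median 10.22) to 7.58 to 8.47 (median 7.67), and fell by 1.78 (adjusted p = 0.00397). The histone deacetylase gene Hdac4, which relays denervation signals, was not called (0.17, adjusted p = 0.57). The calls of Gadd45a and Nrep were lost with the label code as a covariate.

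**Figure D3:**
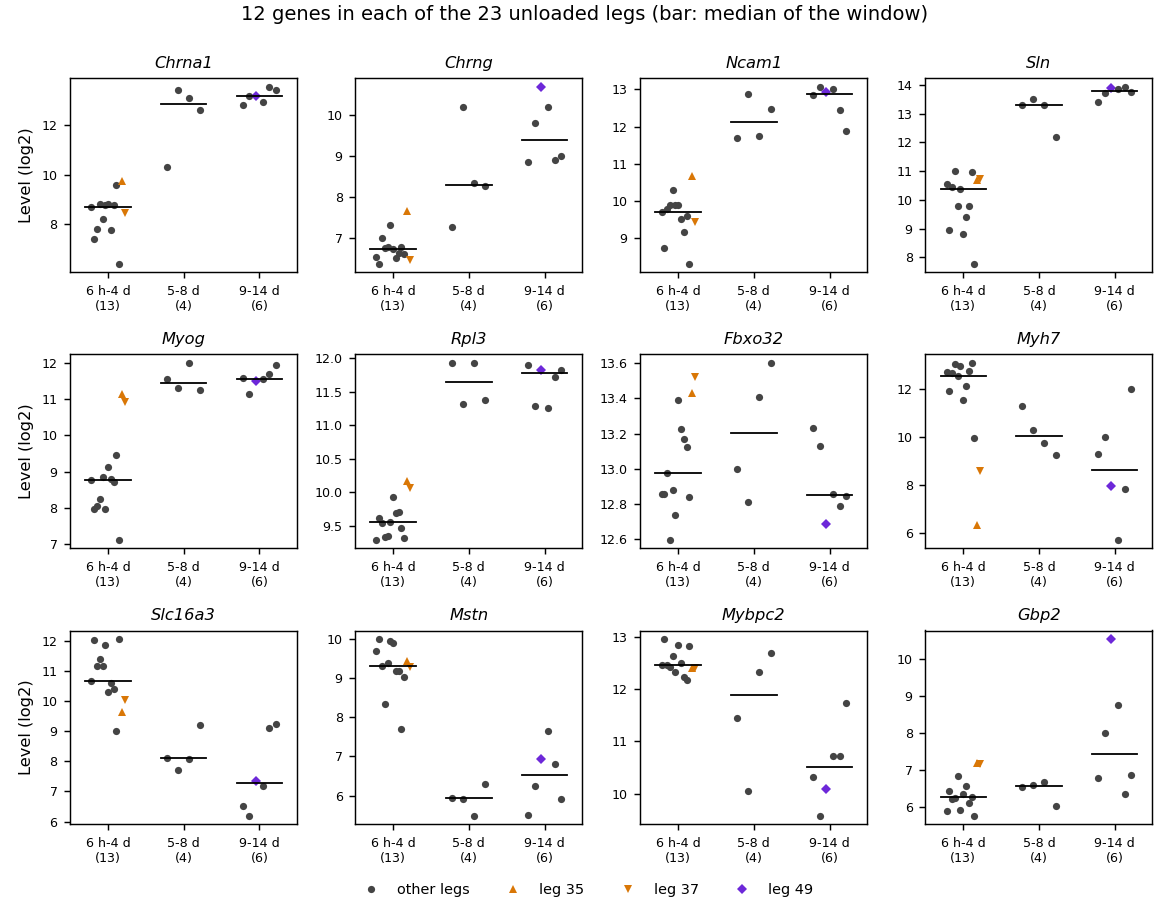
Log2 level of 12 genes in each of the 23 unloaded legs by window, with the window median as a bar; legs 35, 37 and 49 have their own symbols. Chrna1, Ncam1 and Sln lie higher in every leg of 9 to 14 d than in any of 6 h to 4 d, Fbxo32 overlaps throughout, and the Myh7 panel shows legs 35 and 37 far below the other early legs.

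Several other genes rose as strongly as those of the synapse. Cst7, cystatin F, an inhibitor of lysosomal cysteine proteases, ran from 5.96 to 8.35 (median 6.48) and then from 10.35 to 11.65 (median 10.82) and rose by 4.35 (SE 0.33, 20.3-fold, adjusted p = 1.25e-09). Ankrd1, a titin-binding stress protein of the sarcomere, ran from 5.46 to 9.94 (median 7.67) and then from 10.22 to 13.31 (median 11.81) and rose by 4.29 (SE 0.62, 19.6-fold, adjusted p = 7.93e-06). Klk1, tissue kallikrein, a protease that releases kinins, ran from 5.89 to 7.56 (median 6.39) and then from 9.82 to 10.94 (median 10.44), a rise of 3.83 (SE 0.25, 14.2-fold, adjusted p = 1.64e-10). The windows did not overlap for these genes. Sln, sarcolipin, an inhibitor of the calcium pump of the sarcoplasmic reticulum, ran from 7.78 to 10.998 (median 10.38) and then from 13.42 to 13.92 (median 13.81) and rose by 3.81 (SE 0.36, 14.1-fold, adjusted p = 2.95e-08). Slc29a1, a nucleoside transporter, had the smallest adjusted p of all genes (1.59e-11); it ran from 9.09 to 9.91 (median 9.68) and then from 11.87 to 12.59 (median 12.34) and rose by 2.63 (SE 0.14, 6.19-fold). Cd151, a tetraspanin partner of laminin-binding integrins, rose by 1.28 (SE 0.09, adjusted p = 3.28e-10), also without overlap. The RNA-binding protein Rbm47 rose by 2.83, Spg21, maspardin, by 2.77 and the membrane protein Tmem100 by 2.86; Tmem100 overlapped, with a range of 5.50 to 10.16 (median 6.44) early and 8.78 to 10.99 (median 9.88) late. Among genes below the array medians early, the microtubule-associated kinase Dclk1 differed by 4.73, the solute transporter subunit Slc51a by 4.39, Ctxn3, cortexin 3, by 4.28, the adrenergic receptor Adra1b by 3.88 and the phosphatase inhibitor Ppp1r14c by 3.34, all without overlap. Adding the label code as a covariate ended the call of Tmem100.

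Microtubule genes moved with this group. Of 36 tubulin and microtubule-associated genes kept, 18 rose and 4 fell, and 9 were called higher with the label code as a covariate. Tubb6, a β-tubulin, ran from 6.34 to 9.70 (median 7.40) and then from 10.97 to 11.71 (median 11.12), with legs 35 and 37 at 9.70 and 9.44, and rose by 3.62 (SE 0.38, 12.3-fold, adjusted p = 9.24e-08). Tuba1a, an α-tubulin, rose by 2.44 from 8.14 to 10.01 (median 8.97) to 11.17 to 11.82 (median 11.35), and Tuba1b by 2.19. Dynll1, a dynein light chain, rose by 1.82, while Tppp3, a tubulin polymerisation protein, fell by 1.41.

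Genes of the ribosome rose almost as a whole. Of 73 cytosolic ribosomal protein genes kept, 69 rose and 1 fell, a called share of 95.9% against the 45.6% of all genes, and the median log2 difference was 0.65 against 0.07. Their mean level ran from 10.77 to 11.07 in the earlier legs and from 11.46 to 11.69 in the later ones, without overlap, legs 35 and 37 being among the highest early legs. Within the shared label code 60 of them were called higher, and after cyclic loess, which lowers the median of all genes to 0.0006, 67 were, with a median of 0.51. Rpl3, a core protein of the large subunit, had the largest difference of the list; it ran from 9.29 to 10.17 (median 9.56) and then from 11.26 to 11.90 (median 11.78) and rose by 2.02 (SE 0.14, 4.06-fold, adjusted p = 5.09e-10). Rps23 of the small subunit ran from 10.40 to 10.72 (median 10.54) and then from 11.33 to 11.70 (median 11.59) and rose by 1.01 (SE 0.07, 2.02-fold, adjusted p = 1.64e-10). Rps12, Rps21 and Rps24 rose by 1.29, 1.21 and 1.12. Rpl22l1, a paralog of Rpl22, was the exception, with a fall of 0.49 (adjusted p = 0.0273) that was not called without leg 47, 51 or 57 (adjusted p = 0.0627, 0.0514 and 0.0631) or without both legs 35 and 37 (0.0512), and Rpl13 was not called (0.31, adjusted p = 0.287), except with the label code as a covariate (adjusted p = 0.0154) or with probe sets averaged.

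**Figure D4:**
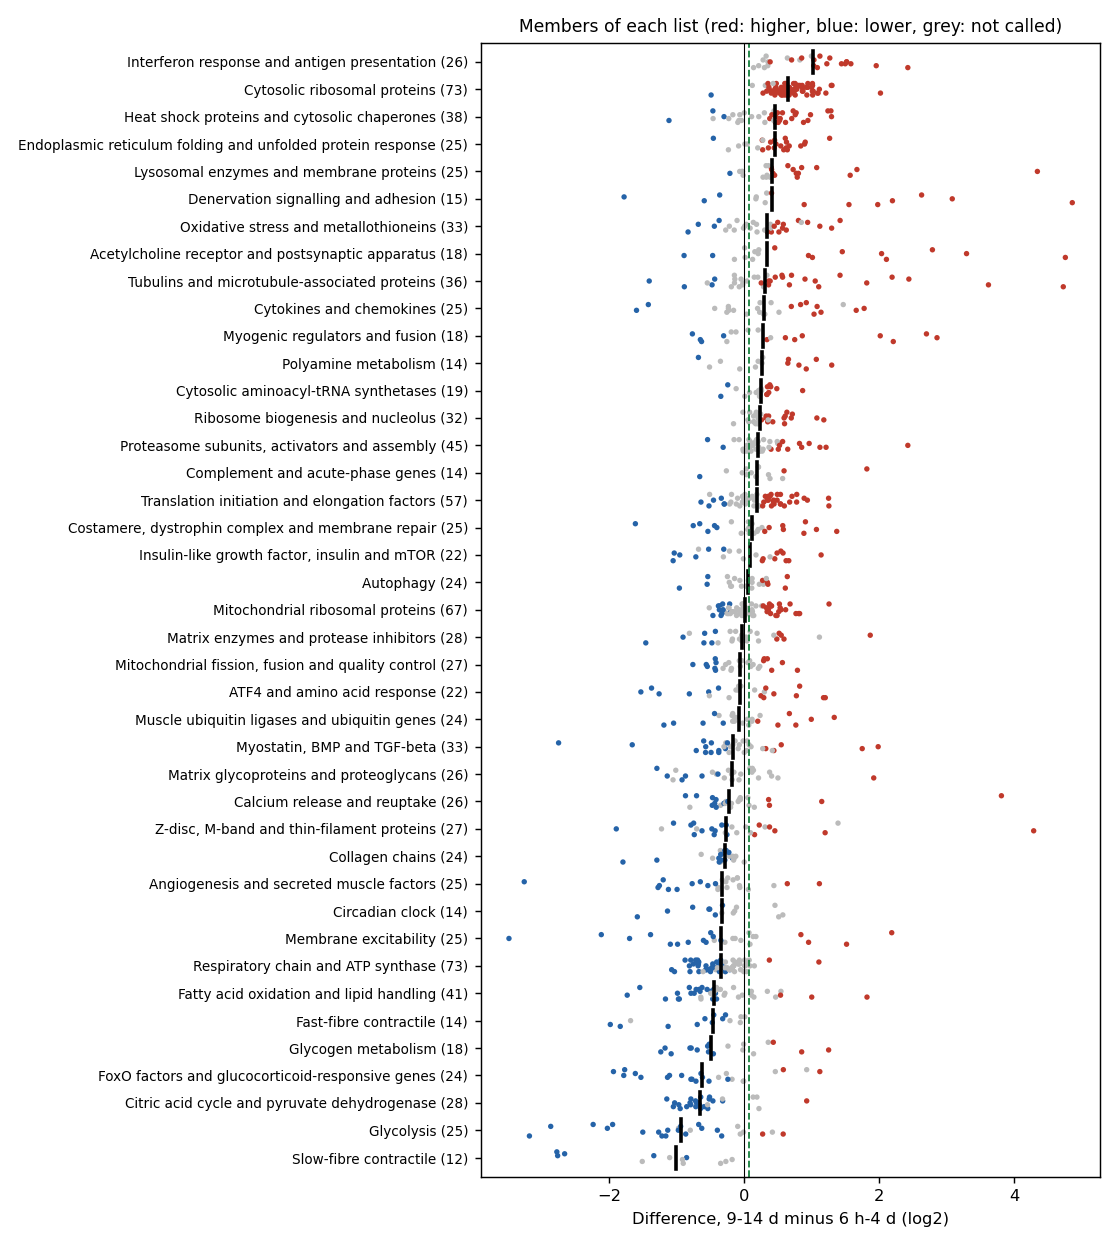
Log2 differences (9 to 14 d minus 6 h to 4 d, x axis) of the members of each gene list with at least 12 genes kept, 1 point per gene, with the list median as a black bar and the number of genes in brackets. The green dashed line is the median of all genes, 0.07; the interferon median is 1.01 over all legs and 0.57 without leg 49, and the slow-fibre and glycolytic medians are -1.01 and -0.94.

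Other parts of the translation machinery rose in part. Among 57 initiation and elongation factors 26 rose and 6 fell. Eef1a1, the form of elongation factor 1α used by most tissues, ran from 12.15 to 12.86 (median 12.38) and then from 13.55 to 13.78 (median 13.69) and rose by 1.26 (SE 0.08, 2.39-fold, adjusted p = 9.95e-11). Eef1a2, the form of mature muscle, ran from 12.70 to 13.02 (median 12.78) and then from 12.68 to 13.04 (median 12.83) and was not called (0.02, SE 0.07, adjusted p = 0.814). The exchange factor gene Eef1b2 rose by 1.25 (SE 0.08, adjusted p = 9.95e-11) without overlap, and the helicase gene Eif4a1 by 0.94, while Eif4ebp1, an inhibitor of cap-dependent initiation, fell by 0.64. Of 32 genes of ribosome biogenesis 14 rose and 0 fell, among them Polr1d, a subunit of RNA polymerases I and III, by 1.18 and Npm1, nucleophosmin, by 0.72; 2 were called higher with the label code as a covariate. Of 19 aminoacyl-tRNA synthetases 8 rose, led by Wars1 (0.87), and 2 fell. Called higher with the label code as a covariate were 14 of the initiation and elongation factors and 2 of the synthetases. Of 67 mitochondrial ribosomal proteins 21 rose and 10 fell, shares near the 28.7% and 16.9% of all genes, with a median of 0.02; after cyclic loess 19 were called higher and 17 lower. Without leg 49 the falls numbered 5 in this list, 3 among initiation and elongation factors and 0 among the synthetases. With the label code as a covariate, Npm1 was no longer called.

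Folding factors rose alongside. Of 38 heat shock proteins and cytosolic chaperones 21 rose and 3 fell, with a median of 0.45; without leg 49 1 fell. Hspb8, a small heat shock protein of chaperone-assisted autophagy, ran from 10.34 to 11.87 (median 10.75) and then from 11.94 to 12.85 (median 12.16) without overlap and rose by 1.30 (SE 0.20, 2.45-fold, adjusted p = 1.61e-05). Hsp90aa1 rose by 1.29, Hsph1, a nucleotide exchange factor of Hsp70, by 1.24, and the chaperonin subunits Cct2, Cct5 and Cct6a by 0.95, 0.76 and 0.77. Hspb6, a small heat shock protein of contractile tissue, fell by 1.11, and the abundant Hspa8 and Cryab were not called (0.22 and 0.11), although Hspa8 was without leg 45 or 47 (adjusted p = 0.0146 and 0.0427). Of 25 genes of folding in the endoplasmic reticulum 18 rose and 1 fell, with rises of 1.27 for Sdf2l1, 0.91 for the disulphide isomerase gene Pdia6 and 0.67 for Calr, calreticulin, whereas Hspa5, the chaperone BiP, was not called (0.28, adjusted p = 0.186). Of these, 7 were called higher with the label code as a covariate. In the list of the ATF4 and amino acid response 8 of 22 genes rose (5 without leg 49, 4 with the label code as a covariate) and 6 fell. Its factor Atf4 ran from 9.63 to 10.51 (median 9.96) and then from 8.64 to 8.96 (median 8.72), without overlap, and fell by 1.26 (SE 0.18, 2.39-fold, adjusted p = 5.72e-06). Asns, asparagine synthetase, a target of ATF4, rose by 1.18, and the transporter genes Slc7a5 and Slc38a2 went in opposite directions (1.20 and -0.81). Among polyamine genes Odc1, the entry enzyme ornithine decarboxylase, rose by 0.92 and Sat1, the catabolic acetyltransferase, by 1.30. Hsp90aa1, Calr, Asns, Odc1 and Sat1 were not called once the label code entered as a covariate.

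Fast-fibre genes fell where they were called. Of 14 fast-fibre genes 9 fell and 0 rose, with a median of -0.46. Mybpc2, fast myosin-binding protein C, ran from 12.16 to 12.95 (median 12.45) and then from 9.58 to 11.74 (median 10.51) and fell by 1.98 (SE 0.28, 3.95-fold, adjusted p = 7.06e-06). Mylk2, skeletal myosin light chain kinase, ran from 11.38 to 12.66 (median 12.09) and then from 9.64 to 10.83 (median 10.23) and fell by 1.84 (SE 0.18, 3.57-fold, adjusted p = 3.14e-08). All later legs lay below all earlier ones for both. Actn3, the α-actinin of fast fibres, fell by 1.13 with overlap. The heavy chains of fast fibres changed less: Myh4 fell by 0.58 (adjusted p = 0.0412) and Myh1 by 0.47 (adjusted p = 0.0213), and Tnnt3, fast troponin T, was not called (-0.05, adjusted p = 0.548). Myh4 lost its call, with an adjusted p of up to 0.11, when leg 13, 15, 19, 23, 27, 33, 35 or 37 of the earlier window or leg 45, 47, 49, 57 or 59 of the later one was left out, and with each rat as a block across the series (adjusted p = 0.0565), and Myh1 without leg 45 or 47 (adjusted p = 0.0782 and 0.0754). The calls of Myh4 and Myh1 were lost with the label code as a covariate.

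Slow-fibre genes were spread widely among legs in both windows. Of 12 kept 5 fell and 0 rose, and 2 fell without leg 51. Myh7, the slow myosin heavy chain, ran from 6.30 to 13.07 (median 12.55) and then from 5.71 to 12.01 (median 8.62) and fell by 2.76 (SE 0.89, 6.79-fold, adjusted p = 0.0149). Myl3, the slow essential light chain, ran from 5.72 to 13.55 (median 13.10) and then from 4.96 to 11.45 (median 9.82) and fell by 2.77 (SE 1.00, 6.84-fold, adjusted p = 0.0268), and Myl2, the slow regulatory light chain, ran from 6.60 to 11.92 (median 11.72) and then from 6.42 to 10.57 (median 7.48) and fell by 2.66 (SE 0.75, 6.32-fold, adjusted p = 0.00609). Legs 35 and 37 hold the lowest early values, 6.30 and 8.57 for Myh7 and 6.60 and 7.16 for Myl2. The mean level of the list ran from 6.97 to 11.82 early and from 7.30 to 11.01 late. Myh7 was not called without leg 51 (-2.15, adjusted p = 0.0588), nor Myl3 without leg 49 or 51 (adjusted p = 0.0578 and 0.11). None of the falls of this list was called within the shared label code or with the code as a covariate, where the median of the list turned from -1.01 to 0.05 and 0.26. Myh2, the heavy chain of fast oxidative fibres, ran from 5.40 to 12.91 (median 12.57) and then from 6.32 to 12.90 (median 9.25) and was not called (-1.68, adjusted p = 0.166), nor were Tnnc1, slow troponin C, and Tnnt1, slow troponin T (-1.51 and -1.10). Without legs 35 and 37 all 3 were called lower, at -2.52, -2.36 and -1.86 (adjusted p = 0.00475, 0.00353 and 0.0205), and the median of the list was -1.70; Myh2 was also called without leg 35 alone (adjusted p = 0.0245). How much of a biopsy came from the slow part of the muscle was not measured here, and its part in the result was not tested. Of 7 developmental and cardiac isoforms 2 rose: Tnnt2, cardiac troponin T, by 1.75 (SE 0.33, adjusted p = 0.000163) and Mybph, myosin-binding protein H, by 1.44, the latter not called with the label code as a covariate. Myh3, embryonic myosin, and Actc1, cardiac actin, were not called (0.68 and 0.68), but Actc1 was with the code as a covariate (2.10, adjusted p = 0.0327).

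At the Z-disc and M-band 6 of 27 genes rose (3 without leg 57) and 12 fell. Ldb3, the Z-disc protein ZASP, ran from 10.93 to 12.75 (median 12.54) and then from 9.76 to 11.59 (median 10.34) and fell by 1.89 (SE 0.32, 3.72-fold, adjusted p = 5.58e-05), while Klhl40, a stabiliser of thin filament proteins, rose by 1.20. Csrp3, muscle LIM protein, was not called (1.39, adjusted p = 0.0622); it was with the label code as a covariate (adjusted p = 0.0138) and without leg 11, 17, 21, 47 or 51. Of 25 genes of the costamere, dystrophin complex and membrane repair 8 rose and 6 fell, and 5 and 4 were called with the label code as a covariate. Dysf, dysferlin of membrane repair, ran from 10.35 to 11.43 (median 10.62) and then from 11.55 to 11.94 (median 11.75) and rose by 1.07 without overlap, as did its partner Anxa2 by 1.37, while Cav3, caveolin 3, fell by 1.61 and Sgcd, δ-sarcoglycan, by 0.66. Adding the label code as a covariate ended the call of Sgcd.

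Genes of excitation and calcium handling moved in both directions, with more falls than rises. Of 25 genes of membrane excitability 4 rose and 12 fell. Kcnn3, a calcium-activated potassium channel of denervated muscle, ran from 8.80 to 12.02 (median 9.52) and then from 11.85 to 12.60 (median 12.33), with overlap through leg 35 at 11.98 and leg 37 at 12.02, and rose by 2.19 (SE 0.39, 4.56-fold, adjusted p = 0.000111). Kcnq5, a voltage-gated potassium channel, rose by 1.52 without overlap. Atp1b2, a subunit of the sodium pump, ran from 11.73 to 13.05 (median 12.26) and then from 9.13 to 11.73 (median 10.03) and fell by 2.12 (SE 0.29, 4.33-fold, adjusted p = 4.85e-06). Scn4b, a sodium channel subunit, fell by 1.70 and Clcn1, the chloride channel of the fibre membrane, by 0.99, whereas the main sodium channel gene Scn4a was not called (-0.05, adjusted p = 0.672). Aqp4, the water channel, ran from 6.10 to 10.40 (median 9.26) and then from 5.32 to 6.06 (median 5.65), below the array medians late, a difference of -3.48. In calcium release and reuptake 4 of 26 genes rose, with Sln above and Cacnb1, the β subunit of the voltage sensor, by 1.15, and 9 fell, with Jph1, junctophilin 1, by 0.87. Without leg 57 2 were called higher and without leg 45 4 lower; with the label code as a covariate 2 were called higher and 2 lower. Ryr1, the release channel, was not called (-0.06, adjusted p = 0.539), nor was the pump gene Atp2a2 (-0.35, adjusted p = 0.513).

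The ubiquitin ligases best known from muscle wasting were not called over all legs. Fbxo32, atrogin-1, ran from 12.60 to 13.52 (median 12.97) and then from 12.68 to 13.23 (median 12.85) (-0.12, SE 0.14, adjusted p = 0.474). Trim63, MuRF1, ran from 11.70 to 12.87 (median 11.97) and then from 10.62 to 12.67 (median 11.83) (-0.37, SE 0.33, adjusted p = 0.364); with the label code as a covariate its difference was -1.07 and was called (adjusted p = 0.0393). With no untreated rats analysed, these values compare early with late paralysis only. Of 24 ligases and ubiquitin genes 6 rose and 5 fell, shares near the 28.7% and 16.9% of all genes, and 3 and 4 were called with the label code as a covariate. Trim55, MuRF2, ran from 7.83 to 8.94 (median 8.52) and then from 9.46 to 10.12 (median 9.81) and rose by 1.34 (SE 0.14, 2.52-fold, adjusted p = 1.08e-07), and Nedd4 rose by 0.67, both without overlap. Fbxo30, a ligase of the BMP-regulated atrophy programme, rose by 1.00 with overlap, while Asb2 fell by 1.19 and Wwp1 by 1.04. Of 45 proteasome genes 12 rose and 2 fell, a called share of 31.1%, below the 45.6% of all genes. The mean of this list ran from 10.05 to 10.19 in the later legs. Legs 35 and 37 lay above all of them, at 10.36 and 10.38, and the other early legs below them, from 9.37 to 10.04; the median difference of the list was 0.21 with legs 35 and 37 and 0.31 without them. It turned to -0.15 with the label code as a covariate and -0.11 within the shared code, and was 0.06 after cyclic loess. Psmb9, a catalytic subunit of the immunoproteasome, ran from 6.38 to 7.44 (median 6.56) and then from 7.83 to 10.84 (median 8.63) without overlap and rose by 2.43 (SE 0.35, 5.38-fold, adjusted p = 9.44e-06), and the assembly chaperone Psmg4 rose by 1.21. With the label code as a covariate, Fbxo30 was no longer called.

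Lysosomal genes rose more often. Of 25 kept 14 rose, against 28.7% of all genes, and 1 fell, with a median of 0.41. With the label code as a covariate 11 were called higher (median 0.39), and within the shared code 1 was (median 0.37). Ctsl, the protease cathepsin L, ran from 9.69 to 11.43 (median 10.45) and then from 11.35 to 12.42 (median 12.33), with leg 35 at 11.35, and rose by 1.67 (SE 0.25, 3.19-fold, adjusted p = 1.19e-05). Cd63, a membrane protein of late endosomes, rose by 1.57 and Ctsb, cathepsin B, by 0.65, both without overlap, and Lgmn, legumain, by 1.08. Ctsl, Cd63, Ctsb and Lgmn were not called within the shared code. Macrophage markers, some of which encode lysosomal proteins, moved in the same direction, and their part in these values was not tested. Of 24 autophagy genes 5 rose (2 with the label code as a covariate) and 3 fell; the receptor gene Sqstm1, p62, and Map1lc3b, LC3B, were not called (0.33 and 0.03; Sqstm1 was without leg 35, adjusted p = 0.0384), and Ulk1, the initiating kinase, fell by 0.96.

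Falls prevailed among FoxO factors and genes that respond to glucocorticoids. Of 24 kept 15 fell and 2 rose, with a median of -0.63; with the label code as a covariate 8 were called lower and the median was -0.44. Foxo1, a transcription factor of the fasting and wasting response, ran from 9.61 to 11.59 (median 10.37) and then from 8.33 to 9.32 (median 8.88), without overlap, and fell by 1.77 (SE 0.26, 3.41-fold, adjusted p = 1.05e-05). Fkbp5, a co-chaperone of steroid receptors and a classical glucocorticoid target, ran from 6.93 to 10.45 (median 9.98) and then from 6.77 to 8.76 (median 7.39) and fell by 1.94 (SE 0.43, 3.83-fold, adjusted p = 0.000947), with legs 35 and 37 at 6.93 and 7.54. Ddit4, an inhibitor of mTOR, fell by 1.78, Sesn1, sestrin 1, by 1.61, Zbtb16, a glucocorticoid-induced zinc finger protein, by 1.53 and Klf15 by 0.62. The receptor gene itself, Nr3c1, was not called (-0.01, adjusted p = 0.919). The metallothionein genes Mt1 and Mt2A, which respond to metals as well as to glucocorticoids, were the 2 that rose, by 1.12 and 0.58; without leg 19 4 genes of the list were called higher. Fkbp5 and Ddit4 were not called once the label code entered as a covariate.

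Growth signalling changed on both sides. Mstn, myostatin, the secreted inhibitor of muscle growth, ran from 7.71 to 9.99 (median 9.30) and then from 5.50 to 7.64 (median 6.53), without overlap, and fell by 2.75 (SE 0.30, 6.72-fold, adjusted p = 1.6e-07). Fst, follistatin, which binds and blocks myostatin and activins, ran from 5.94 to 7.21 (median 6.67) and then from 7.79 to 9.66 (median 8.33), again without overlap, and rose by 1.99 (SE 0.25, 3.96-fold, adjusted p = 1.6e-06). The receptor gene Acvr2b fell by 0.57, and the latent TGF-β binding proteins went apart, Ltbp1 rising by 1.75 and Ltbp4 falling by 1.66. In all, 5 of 33 genes of this list rose and 12 fell (3 and 8 with the label code as a covariate). In the insulin-like growth factor and mTOR list 9 of 22 rose and 6 fell (4 and 3 with the label code as a covariate): Igf1 rose by 0.58 and its binding protein gene Igfbp5 by 1.14, while Irs1, the adaptor of the insulin receptor, fell by 1.05 and Igf2 was not called (-0.68, adjusted p = 0.35). Igf1 was not called without leg 49 or 51 (adjusted p = 0.0744 and 0.061) or after cyclic loess (0.0572). The calls of Ltbp1, Igf1 and Igfbp5 were lost with the label code as a covariate.

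Falls outnumbered rises in energy metabolism. Of 25 glycolytic genes kept 17 fell and 2 rose, with a median of -0.94. Legs 35 and 37 had the lowest early means of this list, 10.23 and 10.34 against an early median of 11.09 and a later range of 9.82 to 10.42. Slc16a3, the lactate exporter MCT4, ran from 9.01 to 12.04 (median 10.66) and then from 6.20 to 9.23 (median 7.28) and fell by 3.18 (SE 0.46, 9.07-fold, adjusted p = 7.9e-06). Its paralog Slc16a1, MCT1, ran from 9.21 to 10.64 (median 10.01) and then from 8.92 to 9.70 (median 9.32) and fell by 0.67 (SE 0.17, 1.59-fold, adjusted p = 0.00236). Both overlapped. Pfkfb1, an enzyme that makes and breaks the activator of phosphofructokinase, ran from 7.82 to 11.05 (median 10.06) and then from 6.64 to 7.44 (median 6.99) and fell by 2.87 (SE 0.38, 7.29-fold, adjusted p = 2.71e-06). Pfkm, muscle phosphofructokinase itself, ran from 12.39 to 13.14 (median 12.98) and then from 11.29 to 11.99 (median 11.61) and fell by 1.27 (SE 0.17, 2.4-fold, adjusted p = 2.7e-06), and like Pfkfb1 did not overlap. The muscle enolase gene Eno3 fell by 1.13 while its paralog Eno1 was not called (-0.01). Eno1 was called higher with the label code as a covariate (0.52, adjusted p = 0.0364). Gpd1, which links glycolysis to glycerol, fell by 2.24, the bisphosphatase gene Fbp2 fell by 2.03, Pfkfb3 fell by 1.95 and Slc2a4, the insulin-responsive glucose transporter, fell by 1.50. Slc2a1, the basal glucose transporter, rose by 0.58, and the hexokinase gene Hk2 was not called (0.42, adjusted p = 0.19). In glycogen metabolism 10 of 18 fell, with -1.17 for the synthase gene Gys1 and -0.53 for the phosphorylase gene Pygm, the latter without overlap, and 3 rose, led by Stbd1 (1.25); with the label code as a covariate 6 were called lower. Adding the label code as a covariate ended the calls of Slc16a1, Fbp2, Slc2a1 and Gys1.

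Mitochondrial genes fell as well, but their falls were smaller with the label code as a covariate. Of 28 genes of the citric acid cycle and pyruvate dehydrogenase 22 fell and 1 rose, with a median of -0.65; of 73 genes of the respiratory chain and ATP synthase 38 fell and 2 rose, with a median of -0.35. With the label code as a covariate 11 and 12 were called lower, and the medians were -0.38 and -0.03. Over all 9289 genes 757 were called lower in that fit, against 1569 without the covariate. Legs 35 and 37 hold the lowest early means of the respiratory list, 10.83 and 10.85 against an early maximum of 11.70. Without them the medians were -0.75 for the citric acid list and -0.43 for the respiratory list. After cyclic loess over all legs they were -0.80 and -0.48. Because both legs carry the shared code, their part and that of the code cannot be told apart. Idh2, mitochondrial isocitrate dehydrogenase, ran from 11.42 to 12.78 (median 12.38) and then from 10.70 to 11.90 (median 10.85) and fell by 1.15 (SE 0.26, adjusted p = 0.000951). Ndufs7 of complex I fell by 1.07 and Cox8b, a muscle form of a complex IV subunit, fell by 1.03. Atp5if1, the inhibitor of ATP synthase, stood against them; it ran from 9.52 to 10.62 (median 10.04) and then from 10.93 to 11.43 (median 11.10), without overlap, and rose by 1.11 (SE 0.14, 2.16-fold, adjusted p = 1.16e-06). Of 41 genes of fat oxidation and lipid handling 19 fell, Hadh of β-oxidation by 1.73, and 3 rose, with a median of -0.45; with the label code as a covariate 7 were called lower and the median was -0.18. Plin2, which coats lipid droplets, ran from 8.20 to 9.15 (median 8.69) and then from 9.63 to 11.32 (median 10.47), without overlap, and rose by 1.82 (SE 0.21, 3.53-fold, adjusted p = 4.76e-07). Ppargc1a, the coactivator of mitochondrial genes, ran from 7.56 to 10.81 (median 10.03) and then from 8.21 to 9.23 (median 8.34) and was not called (-0.64, adjusted p = 0.305), whereas Perm1, a muscle regulator downstream of it, differed by -2.42 with late values below the array medians. With the label code as a covariate, Idh2 and Perm1 were no longer called.

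Beyond metabolism, the largest falls were of varied function. Cmbl, a cytosolic hydrolase, ran from 9.93 to 11.32 (median 11.04) and then from 6.52 to 8.06 (median 7.46), without overlap, and fell by 3.50 (SE 0.22, 11.3-fold, adjusted p = 9.95e-11). Ostn, musclin, a peptide secreted by muscle, ran from 7.20 to 12.08 (median 9.29) and then from 5.16 to 8.48 (median 5.76) and fell by 3.26 (SE 0.60, adjusted p = 0.000138). Mss51, a mitochondrial protein of fast muscle, ran from 7.15 to 10.71 (median 9.17) and then from 5.45 to 7.57 (median 5.89), a difference of -2.87 (SE 0.45, adjusted p = 2.55e-05). Ostn and Mss51 overlapped, and because their later medians lay below the array medians no fold is given. Arrdc2, an arrestin domain protein, fell by 2.67, the dehydrogenase gene Adhfe1 fell by 2.61, Cep85l, a centrosomal protein, fell by 2.51 and the MAP kinase phosphatase gene Dusp8 fell by 1.94, each without overlap. The falls with the smallest adjusted p were Ece1, the endothelin-converting enzyme (-1.61, adjusted p = 3.43e-09), Sec31b of the COPII coat (-1.21), the kelch protein gene Klhdc3 (-1.41), Vwa7 (-1.67) and Vps13d, a lipid transfer protein (-0.88). Among genes below the array medians in the later legs, Lgi2 and Lgi1, secreted leucine-rich proteins, differed by -2.80 and -1.92, Car12, a carbonic anhydrase, by -2.32 and Itgb1bp2, melusin, by -1.82. Lgi1 was not called without leg 49 or 57 (adjusted p = 0.0535 and 0.0607) or with each rat as a block across the series (0.0575). Lgi1, Car12 and Itgb1bp2 were not called once the label code entered as a covariate.

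Collagens fell or were not called. Of 24 collagen genes kept 12 fell and 0 rose. Col1a1, the α1 chain of type I collagen, ran from 8.10 to 11.94 (median 10.68) and then from 7.81 to 10.49 (median 8.52) and fell by 1.80 (SE 0.51, 3.47-fold, adjusted p = 0.00695), and Col1a2 fell by 1.29, while Col3a1 was not called (-0.24, adjusted p = 0.498). Sparc, a collagen-binding glycoprotein, fell by 1.14. Lama5, a laminin chain of basement membranes, ran from 6.76 to 7.58 (median 6.96) and then from 8.57 to 9.20 (median 9.07), without overlap, and rose by 1.92 (SE 0.17, 3.79-fold, adjusted p = 7.8e-09). Plod2, a collagen lysyl hydroxylase, rose by 1.87 without overlap, and Adamts1, a matrix protease, fell by 1.46. Within the shared label code 0 collagens were called, and 3 with the code as a covariate. Of 12 fibroblast markers 2 fell (1 without leg 11, 4 without leg 37) and 0 rose, and the mean of that list ran from 8.38 to 9.69 early and from 8.50 to 9.23 late; its part in the collagen values was not tested. The calls of Col1a1, Col1a2 and Sparc were lost with the label code as a covariate.

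Vascular genes also fell more often than they rose. In the list of angiogenic and secreted muscle factors 10 of 25 fell and 2 rose (3 and 0 with the label code as a covariate). Vegfa, the main vascular growth factor, ran from 9.17 to 11.52 (median 10.53) and then from 8.85 to 9.66 (median 9.30) and fell by 0.99 (adjusted p = 0.0199), Fgf1 fell by 1.28 and Epas1, the hypoxia-inducible factor of endothelium, by 1.12, whereas Fgf7 rose by 1.12. Of 8 endothelial markers 4 fell and 0 rose, Cdh5, VE-cadherin, by 0.34, and of 11 smooth muscle and pericyte markers 5 fell (3 without leg 13) and 0 rose. With the code as a covariate 1 endothelial and 3 smooth muscle markers were called lower. Of 14 clock genes 7 fell, with -1.13 for Per1 and -1.58 for Nfil3, and 0 rose (2 without leg 59), and with the label code as a covariate 3 were called lower; the time of day of sampling is not given in the sources used here. Oxidative stress genes rose in 13 of 33 cases and fell in 4. Nqo1, a quinone reductase and target of NRF2, ran from 7.59 to 9.17 (median 8.45) and then from 8.61 to 10.56 (median 10.08) and rose by 1.42 (SE 0.28, adjusted p = 0.000255). Adding the label code as a covariate ended the calls of Vegfa, Fgf1, Fgf7, Cdh5 and Nfil3.

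Interferon-responsive and antigen-presenting genes had a median difference of 1.01, with a wide spread among the later legs. Of 30 on the array 26 passed the filter, some only through arrays other than the earlier unloaded legs. Of these 26, 16 rose and 0 fell. The mean of the list ran from 6.95 to 7.79 in the earlier legs and from 7.41 to 9.84 in the later ones, with leg 49 at the top and legs 45, 47 and 57 within the early range. Without leg 49, 12 were called higher and the median was 0.57, below that of the ribosomal (0.64) and macrophage (0.68) lists. The number called higher was 8 with the label code as a covariate and 2 within the shared code. B2m, the light chain of class I molecules, was high in every later leg; it ran from 12.37 to 13.21 (median 12.64) and then from 13.56 to 13.87 (median 13.75), without overlap, and rose by 1.09 (SE 0.10, 2.12-fold, adjusted p = 2.35e-08). Gbp2, a guanylate-binding protein induced by interferon, ran from 5.77 to 7.18 (median 6.27) and then from 6.36 to 10.54 (median 7.44), with overlap and with leg 49 at 10.54, and rose by 1.50 (SE 0.40, 2.83-fold, adjusted p = 0.00402). Gbp5 rose by 1.52, the peptide transporter genes Tap1 and Tap2 by 1.44 and 0.39, their partner Tapbp by 0.70, Stat2 by 1.03 and the immunoproteasome subunit genes Psmb8 and Psmb10 by 1.12 and 0.85. Mx1, an antiviral GTPase, ran from 4.23 to 5.94 (median 4.81) early, below the array medians, and from 4.72 to 10.71 (median 6.21) late, a difference of 1.96, and Oas1a, which senses double-stranded RNA, differed by 1.52. Irf7, a factor of the same response, was not called (1.00, adjusted p = 0.061) although leg 49 stood at 11.16 against a later median of 7.17; it was called without leg 45, 47 or 57 (adjusted p = 0.042, 0.0248 and 0.0347). Tap2 was not called without leg 49 (adjusted p = 0.0973), nor Tapbp without leg 47, 49 or 51 (adjusted p = 0.0522, 0.118 and 0.0736), and Mx1 and Oas1a were not kept when a gene had to exceed the array median on at least 12 arrays or on average over all of them. With the label code as a covariate, Tap2, Tapbp, Mx1 and Oas1a were no longer called.

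For the genes of this list that rose, the promoters with the interferon-stimulated response element near the start are shown (searched as GAAA, any 2 bases, GAAA), because it is the motif the pathway is known for. The 80 bases before the start are given 5′ to 3′ from RefSeq (GRCr8), with the motif on either strand in capitals; in Oas1a and Tapbp neighbouring matches overlap.
Gbp2, chr2:234005647-234005726, plus strand: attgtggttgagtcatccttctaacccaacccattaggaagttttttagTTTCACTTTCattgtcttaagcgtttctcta
Gbp5, chr2:233910919-233910998, plus strand: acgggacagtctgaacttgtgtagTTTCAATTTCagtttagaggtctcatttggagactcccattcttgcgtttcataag
Oas1a, chr12:41330386-41330465, plus strand: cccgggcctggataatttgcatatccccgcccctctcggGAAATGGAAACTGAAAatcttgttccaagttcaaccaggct
Psmb10, chr19:50743293-50743372, minus strand: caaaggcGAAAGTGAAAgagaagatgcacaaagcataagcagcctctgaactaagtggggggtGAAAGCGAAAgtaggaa
Tap2, chr20:4652297-4652376, minus strand: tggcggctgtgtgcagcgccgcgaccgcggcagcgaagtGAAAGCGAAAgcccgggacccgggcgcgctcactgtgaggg
Tapbp, chr20:4967878-4967957, minus strand: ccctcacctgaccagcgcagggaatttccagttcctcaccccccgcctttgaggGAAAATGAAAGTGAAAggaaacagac
Of the 16 genes that rose 15 have an entry, and 8 of these hold the motif within 250 bases before the start, against 3.41% of all promoters of that length. Tap1 and B2m hold it farther out, beginning 121 and 150 bases before the start. The list was made of genes known to respond to interferon, so a high share of this motif was likely whatever the arrays showed. Members that were not called were not searched. A match describes letters, not binding, and the part of the motif in the rises was not tested.

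Macrophage markers moved with these genes. All 18 markers named on the array passed the filter; 12 rose and 0 fell. Lgals3, galectin 3, ran from 8.46 to 9.53 (median 9.09) and then from 9.73 to 11.57 (median 10.70), without overlap, and rose by 1.63 (SE 0.26, 3.1-fold, adjusted p = 2.8e-05). Cd68, a lysosomal protein of phagocytes, ran from 6.49 to 7.97 (median 7.21) and then from 7.12 to 10.77 (median 8.31) and rose by 1.41 (SE 0.40, 2.66-fold, adjusted p = 0.00607), with leg 49 at 10.77. Csf1r, the receptor of the macrophage growth factor, rose by 0.92 and Lyz2, lysozyme, by 1.23. Cd163 and Mrc1, receptors of resident macrophages, and C1qa and C1qb, complement genes, were not called (0.20, 0.49, 0.57 and 0.17). Mrc1 was called higher with the label code as a covariate (0.95, adjusted p = 0.023) and without leg 47 (adjusted p = 0.0334), and C1qa with the code as a covariate (1.08, adjusted p = 0.0381) and without leg 45 or 47 (adjusted p = 0.0297 and 0.0295). The mean of the list ran from 7.17 to 8.19 early and from 7.68 to 9.92 late, again with leg 49 highest and leg 45 lowest. With the label code as a covariate 14 of the markers were called higher. Within the shared code, with 4 legs against 4, 1 was called higher, at a list median of 1.04, and Cd68, Csf1r and Lyz2 were not called. Of 4 T and natural killer markers kept 3 rose, and their mean ran from 6.58 to 7.15 early and from 6.91 to 9.00 late. Without leg 49 2 were called higher, with the label code as a covariate 3 and within the shared code 0. The filter asks for only 4 of the 46 arrays, so a gene can be kept through the arrays where it is high. By their mean over all arrays 2 of these 4 markers and 19 of the 25 cytokine genes below would be kept. In the cytokine list 8 of 25 genes rose and 2 fell, but without leg 49 3 were called higher and 4 lower, and with the label code as a covariate 4 were called higher. Cxcl10, an interferon-induced chemokine, ran from 5.81 to 8.88 (median 6.46) and then from 6.26 to 13.02 (median 7.58), with leg 49 at the top, and rose by 1.78 (SE 0.68, adjusted p = 0.0355), and Ccl2, which draws monocytes, rose by 1.66; without leg 49 neither was called (adjusted p = 0.159 and 0.0894), and Cxcl10 also not without leg 51 (0.0966). Il15, a cytokine made by muscle fibres, ran from 7.55 to 9.34 (median 8.87) and then from 6.60 to 7.53 (median 7.29), without overlap, and fell by 1.59 (SE 0.20, 3.02-fold, adjusted p = 1.17e-06), and the receptor gene Il6r fell by 1.42, also without overlap. Cxcl10 was not called once the label code entered as a covariate.

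**Figure D5:**
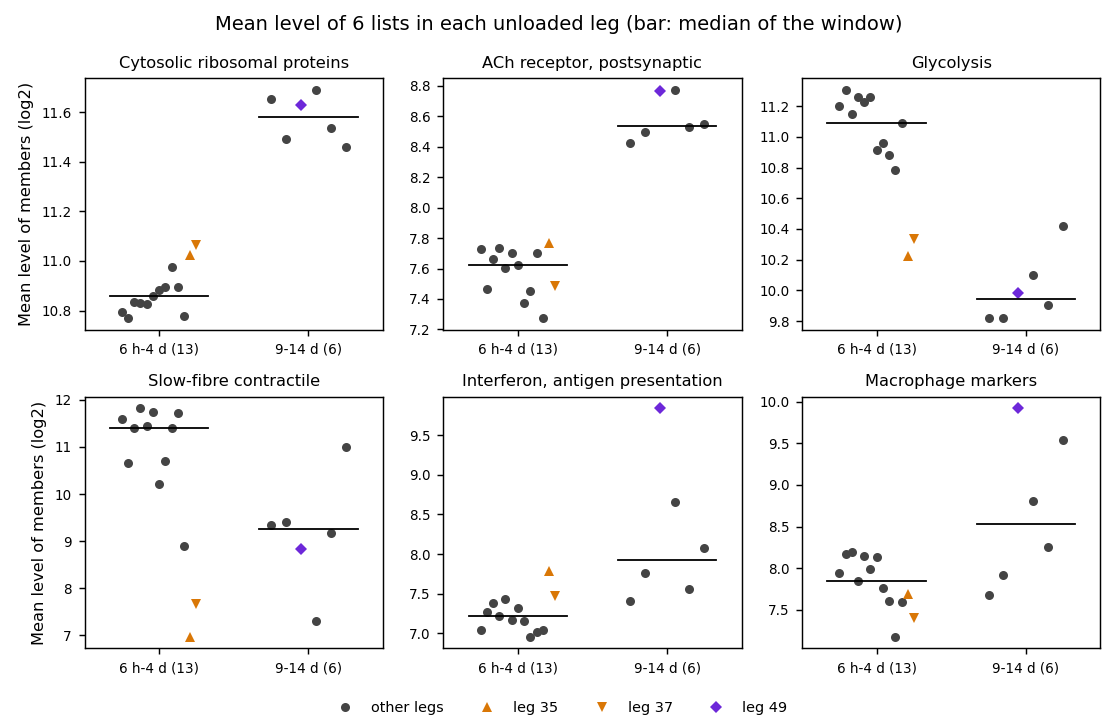
Mean log2 level of the kept members of 6 lists in each of the 13 legs of 6 h to 4 d and 6 legs of 9 to 14 d, with the window median as a bar and legs 35, 37 and 49 marked. Ribosomal and synaptic means do not overlap between windows, slow-fibre means spread over several log2 units in both, and leg 49 is the highest for interferon and macrophage genes.

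On the first principal component the 4 legs of 5 to 8 d had scores of 17.4, 23.3, 32.9 and 37.5, against 22.8 to 33.5 at 9 to 14 d. For 2356 of the 4232 called genes their median lay between the medians of both windows, as for Chrna1 (12.87 between 8.72 and 13.17), Chrng (8.30 between 6.73 and 9.39) and Slc51a (6.85 between 5.71 and 10.09). Trim63 had a median of 12.93 at 5 to 8 d against 11.97 before and 11.83 after, and Mstn one of 5.93 against 9.30 and 6.53. In the loaded legs of the same rats 4200 of the 4232 called genes differed between the windows in the same direction. The difference between the legs in this change was tested on the full set of 46 arrays, taking each rat as a block; no gene was called (limma; smallest adjusted p = 0.0664, 717 genes at an unadjusted p under 0.05, 0 with cyclic loess and 1 with array weights). A p above the threshold does not show that the legs changed alike. The rat of each loaded leg was inferred from neighbouring label numbers.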

How the data were processed

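RNA from the unloaded gastrocnemius was measured on 19 microarrays, 1 per rat, 6 from rats of 9 to 14 d and 13 from rats of 6 h to 4 d. The values are log2 values of 26208 probe sets as deposited, which the authors made with RMA, per the submitters' processing notes, with no version given. RMA brings the probe intensities of all arrays to the same distribution before they are summarised, and the array medians of the deposited values ran from 6.07 to 6.20. A shift common to most genes therefore cannot be seen, and folds of dim probe sets are compressed. The number of arrays limits the precision.

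The platform annotation names 1 gene for 15088 probe sets (14317 genes) and several for 323, which were left unnamed, while 10797 are not listed in it. Probe sets above the median of the array in 4 or more of the 46 arrays, loaded legs included, were retained (14834 probe sets). Each gene was represented by its retained probe set with the highest mean over these arrays (9289 genes). The windows were compared with limma 3.58.1 in R 4.3.3 over the 23 unloaded legs, with Benjamini-Hochberg adjustment over 9289 genes and a threshold of 0.05. Genes whose mean in a window lay below the lowest array median (6.07) are given without a fold. The scripts were tested on simulated data.

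The genes named are the called genes with the largest differences (12 rises and 12 falls above the lowest array median in both windows, 6 and 6 below it in a window), 6 and 6 further genes with the smallest adjusted p, and in each gene list the members with the largest changes and known members that were not called. The comparison, the gene lists and the genes named were chosen with earlier results of these data known. Promoters come from the RefSeq table of assembly GRCr8. Nothing in the labels gives the exact duration for each rat within a window, and rats are separate animals, so p-values measure the spread between rats. Alternatives were other filters, cyclic loess, median centring, array weights, another variance prior, the label code, the rat as a block and leaving out each leg. Leaving out each leg for the gene lists, and the values of legs 35, 37 and 49, were added after seeing the data.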

Additional observations from a re-analysis of the deposited data

Results flagged for a closer look

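In the 6 legs of 9 to 14 d, 237 named genes were examined for a leg far from the others, by the gap to the nearest leg as a share of the window's range. Chance flags about 1 in 20 such groups, and 12 of the 237 genes passed, about as many as chance alone would flag. The legs are therefore listed as values only. Leg 51 stood apart for Runx1 at 12.31, below the next leg at 12.77 (share 0.770), and above the next leg for Mss51 at 7.57 (share 0.700), Adamts1 at 8.93 (0.692), Sesn1 at 8.81 (0.660) and Ostn at 8.48 (0.645). Leg 59 was the lowest for Dclk1 at 9.15 (share 0.755) and Pcna at 8.45 (0.721) and the highest for Wwp1 at 10.49 (0.679) and Myf5 at 9.93 (0.634). Leg 49 was the highest for the interferon regulatory factor gene Irf7 at 11.16, against 7.68 in the next leg (share 0.728), and the lowest for Ulk1 at 9.71 (0.645). Leg 57 was the highest for Klhl40 at 11.59 (0.665).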

How the results depend on the processing

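The fits that use the label code changed the counts most. In both, the earlier side of the difference rests on the 4 legs of the shared code. With the code as a covariate 2177 genes were called (1420 higher, 757 lower, 121 lower by at least 2-fold), and in the legs of the shared code, which are fewer, 924 (678 higher, 246 lower, 191 higher and 76 lower by at least 2-fold). Without the filter on dim probe sets 2363 genes were called lower. Leaving out 1 leg at a time gave 3639 (without leg 49) to 4454 (without leg 35) called genes, 2371 to 2796 higher, 1268 to 1678 lower, 317 to 420 higher and 188 to 222 lower by at least 2-fold. All other alternatives kept these counts within 1.5 times. Of the 4232 called genes 4196 kept their direction in every setting, though all settings share legs with the fit that called them. No paired analysis was possible between the windows because no rat lies in both; a fit on all 46 arrays with each rat as a replicate block (correlation 0.51) called 4341 genes. The difference between legs in the change with duration gave 0 calls with the rat as a block, 0 without the replicate block and 1 with array weights. Eno1 reversed, from -0.01 to 0.52, with the code as a covariate; the cause was not tested. Of 205 named genes that were called, 49 lost the call with the code as a covariate, 108 in the legs of the shared code and 8 without leg 49. Signals near the array medians, as for Emb, Dclk1 and Aqp4, limit how far a difference can be read as a size.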

Other observations

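Some gene groups with fewer members, or with smaller changes, are given here as values with no explanation. Cell cycle genes were mostly too dim to keep, as 8 of 21 passed the filter. Of these 4 rose and 0 fell: the kinase gene Cdk4 by 0.70, its cyclin Ccnd1 by 0.54, the replication clamp gene Pcna by 0.57 and the helicase gene Mcm2 by 0.39 on the log2 scale. Of 11 targets of p53 5 rose (2 with the label code as a covariate) and 1 fell, with 2.20 for Gadd45a and 1.98 for Cdkn1a at one end and -1.61 for Sesn1 at the other. Phosphagen and adenine nucleotide enzymes went both ways. Gatm, of creatine synthesis, rose by 0.62, while the nucleotidase gene Nt5c1a fell by 1.56 and Ckm, muscle creatine kinase, fell by 0.20. The calls of Pcna and Gadd45a were lost with the label code as a covariate.

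Polyamine genes rose in 6 of 14 cases (2 with the label code as a covariate) and fell in 1; the spermine synthase gene Sms rose by 1.07 and Oaz2, an antizyme that lowers ornithine decarboxylase, fell by 0.68. In mitochondrial fission, fusion and quality control 6 of 27 genes rose (3 without leg 57, 1 with the label code as a covariate) and 7 fell. Tfam, which packages mitochondrial DNA, rose by 0.57, while the fusion gene Opa1 lay at -0.42 and the protease partner gene Clpx at -0.76. Of 5 mast cell markers kept 3 fell and 0 rose, and with the label code as a covariate 0 were called lower. Of 14 complement and acute-phase genes 2 rose (1 without leg 49) and 1 fell. Adding the label code as a covariate ended the call of Tfam.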
